A study of Homo sapiens with 4 samples.

Results

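The keratin gene family was examined on the 4 arrays of a study of the histone methyltransferase G9a in human lung adenocarcinoma cells. Members were all probe sets annotated to a single gene whose symbol is KRT followed directly by a number. Keratin-associated protein genes, pseudogenes and antisense RNAs were left out. The rule gave 56 of the 54675 probe sets, for 44 genes: 24 type I genes and 20 type II genes. KRT222 was counted with type I by its place in that gene cluster. RefSeq lists 11 further keratin genes (KRT6A, KRT6B, KRT6C, KRT17, KRT26, KRT28, KRT34, KRT39, KRT81, KRT82 and KRT86), which were not analysed here.

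The cells were CL1-0, an established human lung adenocarcinoma line, and CL1-5, a more invasive line derived from it. Each of the 4 groups was 1 array of 1 stably transduced, puromycin-selected population: control shRNA in CL1-5, G9a shRNA in CL1-5, control vector in CL1-0, and HA-tagged G9a (HA-G9a) in CL1-0. The knockdown rests on 1 shRNA construct, and the controls of the lines differ in construct. There were no replicates, so differences between 2 arrays have no replicate check and carry no p-value. Values are MAS5 signals, linear intensities summarised over the probes of a probe set, and they give no read depth.

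Keratins are the intermediate filament proteins of epithelial cells. A filament is built from pairs of an acidic type I and a basic type II chain, so epithelia express the types together, in combinations that mark the kind of epithelium. KRT8 and KRT18 are the pair of simple epithelia such as the alveolar and airway lining, usually joined by KRT7 and KRT19. KRT5 with KRT14 or KRT15 marks basal cells, KRT1 with KRT10 the upper layers of skin, and a large group belongs to hair and nail. In lung adenocarcinoma, KRT7, KRT8, KRT18 and KRT19 are the keratins usually found.

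EHMT2, which encodes G9a, followed the labels on its bright probe set, which read 376 in the CL1-5 control, 28.1 with the G9a shRNA, 420 with the CL1-0 vector and 862 with HA-G9a. Another probe set read 34.2, 9.98, 38.0 and 44.2 in that order, lower after the knockdown and little higher with HA-G9a. The dimmest read 2.1, 5.32, 3.58 and 7.89, under 12.5 on every array and higher on both perturbed arrays. The arrays differed in general level: medians over all probe sets were 11.3 to 14.9, highest on the G9a shRNA array. The median measured gene had a log2 ratio of 0.42 after the knockdown, of -0.08 with HA-G9a and of -0.01 between the control arrays. Ratios called relative have that median subtracted. The labels name the type II alveolar cell as the cell of origin. Of 8 measured type II markers, 3 to 5 per array reached 12.5 (the median over all probe sets and arrays), and the highest signal of any was 60.2, for NKX2-1 with HA-G9a. SFTPC, the lineage's defining surfactant gene, read 33.5, 29.8, 21.3 and 6.72 in the order of the groups above.

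Most keratins were dim on every array. Of the 44 genes, 31 stayed under 12.5 on all 4 arrays (18 of type I, 13 of type II), with signals of 0.266 to 12.5. Only KRT7, KRT8, KRT10 and KRT18 were at or above 12.5 on all 4 arrays, and only KRT8, KRT10, KRT18 and KRT80 reached 84.2, the 75th percentile of all values, on at least 1. By probe set, 16.1% to 21.4% of the keratin probe sets of an array were at or above the median, against 54.7% to 59.2% of all probe sets named by 1 gene. Taking the highest of the 4 arrays, 28.6% of keratin probe sets reached 12.5, against 66.2%, and 10.7% reached 84.2, against 35.8%. A MAS5 signal depends on the probes as well as on the RNA, so levels are compared here between arrays and not between genes.

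**Figure D1:**
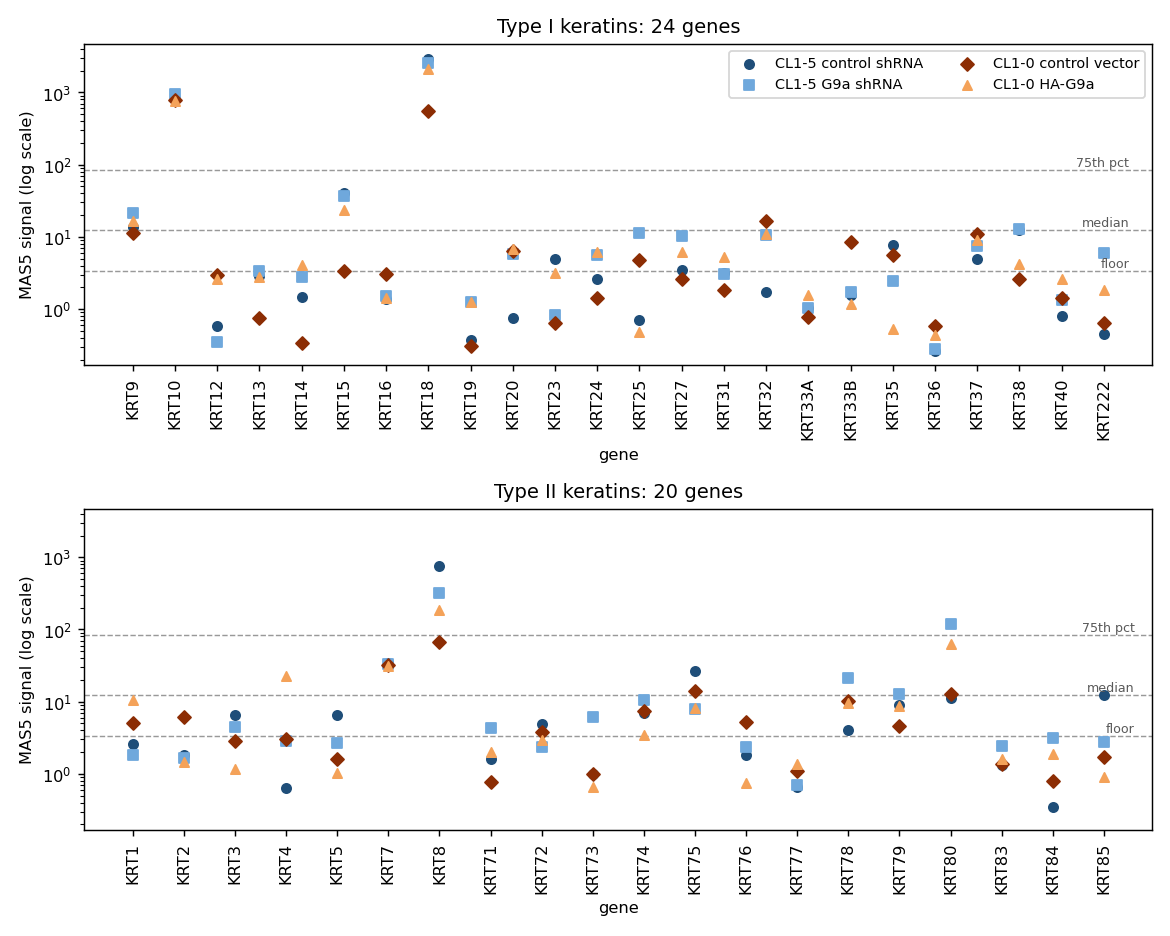
MAS5 signal on a log axis for the 24 type I genes (upper) and 20 type II genes (lower), with 1 point per array and dashed lines at 3.35 (floor), 12.5 (median) and 84.2 (75th percentile). KRT10 and KRT18 lie above the upper line on all 4 arrays, KRT8 on all but the CL1-0 vector array (67.1), and KRT80 only on the CL1-5 G9a shRNA array (121).

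The dim genes were then sorted by class. None of 6 measured inner root sheath genes reached 12.5 on any array. Of 12 measured hair and nail genes, 2 did (KRT32 and KRT38), and 5 stayed at or below 3.35, the floor, on all 4 arrays. Of 6 mucosa and cornea genes 2 reached 12.5 (KRT4 and KRT78), and of 5 suprabasal skin genes 2 did (KRT9 and KRT10). KRT85, a hair keratin, lay just under that threshold at 12.5 before rounding in the CL1-5 control. Of the basal layer genes only KRT15 reached it: KRT5, the basal type II chain, had signals of 6.45, 2.68, 1.62 and 1.03, and KRT14, its partner, of 1.49, 2.78, 0.337 and 4.10. KRT16, a keratin of activated keratinocytes, was at 1.36 to 3.02.

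KRT19, a small type I chain of simple epithelia, was at background on every array. Its probe sets read 0.668, 0.352, 0.665 and 0.669, and 0.378, 1.25, 0.304 and 1.26. All 8 values lay under the floor. KRT20, the type I chain of gut epithelium, read 0.747, 5.84, 6.40 and 6.70 and did not reach 12.5 either.

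KRT8 and KRT18, the simple epithelial pair, were bright and differed widely between arrays. In CL1-5, KRT8 read 757 with the control shRNA and 325 with the G9a shRNA, whereas the CL1-0 arrays gave 67.1 (vector) and 186 (HA-G9a). The CL1-5 control was thus the brightest array and the CL1-0 vector the dimmest. In RNA from whole cultures, fewer expressing cells and less RNA per cell cannot be told apart. In CL1-5, KRT18 read 2945 with the control shRNA and 2533 with the G9a shRNA, whereas the CL1-0 arrays gave 545 (vector) and 2113 (HA-G9a). Here the CL1-0 vector array stood apart and the other 3 lay between 2113 and 2945. KRT18 lies on chromosome 12 beside KRT8 and the other type II genes, whereas the other 23 type I members are on chromosome 17.

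Both genes were measured by 1 probe set each, of the type marked _x_at, which can also bind related transcripts. RefSeq lists 52 pseudogenes of KRT8 and 68 of KRT18. How far these add to the signals was not tested.

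**Figure D2:**
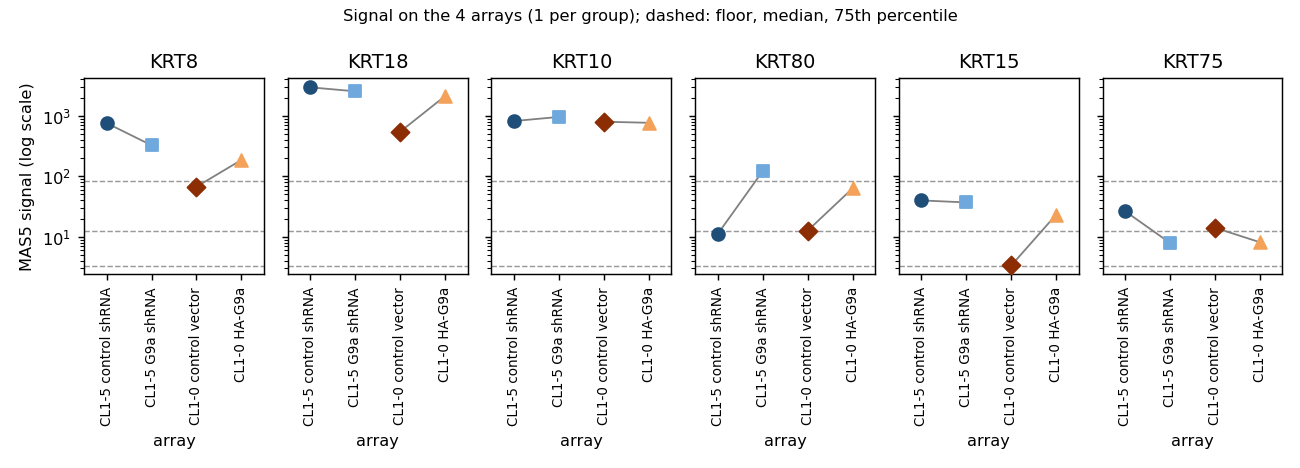
MAS5 signal on a log axis on each of the 4 arrays, 1 point per array, for 6 keratin genes; grey lines join the arrays of a line, and dashed lines mark 3.35, 12.5 and 84.2. KRT8, KRT18 and KRT15 are dimmest with the CL1-0 vector, KRT10 is level, and KRT80 reads higher with the G9a shRNA (121) and HA-G9a (63.1) than in the controls (11.1 and 12.6).

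KRT10, a suprabasal chain of skin that other cells can also express, was bright and nearly level. It read 817, 956, 797 and 764 on its main probe set. The other probe sets read 768, 910, 725 and 694, and 500, 648, 493 and 480. All 3 were highest with the G9a shRNA, whose array was brighter in general, and relative to the median gene the ratios after the knockdown were -0.19, -0.18 and -0.05. With HA-G9a they were 0.02, 0.02 and 0.04.

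Promoter windows are shown for members whose values are described here: KRT8 and KRT10, the brightly detected genes with an entry, and KRT75 and KRT4, which differed between arrays at lower signals. They are RefSeq windows of build GRCh38.p14, from 250 bases before to 50 after a transcript start, 5′ to 3′ on the minus strand, on which all 4 genes lie. The windows are chr12:52926420-52926719, chr17:40822565-40822864, chr12:52434322-52434621 and chr12:52814067-52814366. The KRT8 window belongs to the start the table gives; other KRT8 transcripts start elsewhere. Capitals mark matches, on either strand, to the TATA box TATAAA, the GC box GGGCGG or the AP-1 motif TGANTCA.
KRT8: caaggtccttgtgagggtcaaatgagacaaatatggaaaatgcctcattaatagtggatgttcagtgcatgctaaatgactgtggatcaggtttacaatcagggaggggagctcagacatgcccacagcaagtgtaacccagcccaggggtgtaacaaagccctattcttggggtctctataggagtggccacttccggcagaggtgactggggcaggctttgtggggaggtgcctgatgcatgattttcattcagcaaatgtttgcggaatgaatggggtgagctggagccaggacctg
KRT10: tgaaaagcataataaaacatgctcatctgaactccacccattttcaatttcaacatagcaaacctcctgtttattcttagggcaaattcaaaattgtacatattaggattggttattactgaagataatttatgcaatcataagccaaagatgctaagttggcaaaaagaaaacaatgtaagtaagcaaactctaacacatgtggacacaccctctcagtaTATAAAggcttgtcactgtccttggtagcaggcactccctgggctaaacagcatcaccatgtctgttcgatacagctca
KRT75: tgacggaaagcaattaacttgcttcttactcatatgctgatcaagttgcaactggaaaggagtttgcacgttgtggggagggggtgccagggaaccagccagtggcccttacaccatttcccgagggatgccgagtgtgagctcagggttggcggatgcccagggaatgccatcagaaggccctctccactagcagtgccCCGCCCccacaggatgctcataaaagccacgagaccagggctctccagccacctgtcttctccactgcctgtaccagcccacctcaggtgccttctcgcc
KRT4: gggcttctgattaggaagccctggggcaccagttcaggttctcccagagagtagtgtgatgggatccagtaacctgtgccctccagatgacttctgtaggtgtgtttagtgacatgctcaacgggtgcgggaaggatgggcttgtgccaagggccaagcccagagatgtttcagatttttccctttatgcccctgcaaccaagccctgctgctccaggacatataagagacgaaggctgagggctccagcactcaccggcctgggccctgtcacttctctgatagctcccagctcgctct

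KRT10 held TATAAA starting at base 222 of its window, and KRT75 held GGGCGG on the opposite strand starting at base 201. The KRT8 and KRT4 windows held none of these letters. Of 33 windows for 29 members, 16 (48.5%) held TATAAA, against 11.5% of all 35116 windows, and 6 (18.2%) held GGGCGG, against 45.0%. None held TGANTCA, which 7.71% of all windows held. The median number of CG dinucleotides was 2 in the keratin windows and 14 in all. Members without a window, among them KRT7, KRT15, KRT18 and KRT80, are not in these shares, and KRT40 supplied several windows, some overlapping. These counts describe the letters only.

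The knockdown arrays address which genes differ when G9a is reduced in the more invasive line. After the knockdown, 11 keratin genes were measurable, meaning that the brighter array was at or above 12.5. Of these, KRT80 and KRT78 were at least 2-fold higher and KRT8 and KRT75 at least 2-fold lower relative to the median gene. Over all 13045 measurable genes, 8.13% were higher and 7.76% lower by that rule, 15.9% in all. Among genes whose brighter array reached 84.2, 1 of 4 keratins was higher (KRT80) and 1 lower (KRT8), against 4.85% and 5.17% of 8458 genes. The median relative log2 ratio of the 11 keratins was -0.40, against 0 for all genes by construction. KRT78, KRT79 and KRT80 were measurable only through the G9a shRNA array, and KRT75 only through the control, so count and median depend in part on the filter.

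KRT80, a type II chain of many epithelia that lies near desmosomes, read 121 with the G9a shRNA against 11.1 in the control. The log2 ratio was 3.45 as deposited and 3.03 after subtracting the median gene. It thus lay just under the median of all values in the control and above the 75th percentile with the shRNA. KRT78, a type II keratin of stratified epithelia, read 21.6 against 4.05, a relative log2 ratio of 1.99. Its other probe set read 3.66 against 0.656, both near or under the floor. With the floor raised to 12.5 the KRT78 ratio was 0.42, under 2-fold. KRT8 read 325 against 757. Its log2 ratio was -1.22 as deposited, and its relative ratio -1.64. KRT75, a type II chain of the hair follicle's companion layer, read 7.90 against 26.5, a relative log2 ratio of -2.16.

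KRT18 had a relative ratio of -0.64 and as deposited of -0.22, short of 2-fold on both scales. Thus the type II member of the simple pair differed by 2.33-fold and the type I member by 1.16-fold as deposited. KRT15 read 36.9 against 39.9, and KRT9, a keratin of palm and sole skin, 21.2 against 13.9. KRT79, a type II chain found in skin glands, read 8.90 in the CL1-5 control, 12.6 with the G9a shRNA, 4.60 with the vector and 8.68 with HA-G9a, and KRT38 read 12.8 against 12.6 after the knockdown. As a technical yardstick, log2 ratios of probe sets of the same gene differed with a pooled SD of 0.54 in this comparison (6685 genes), and of 0.30 where the brighter array reached 84.2. This is a spread between probes and not between cultures.

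With HA-G9a in CL1-0, the comparison addresses which genes differ when G9a is raised in the less invasive line. Of 10 measurable keratins, 5 were at least 2-fold higher and 0 lower: KRT4, KRT8, KRT15, KRT18 and KRT80. Over all 12791 measurable genes, 5.46% were higher and 3.74% lower, 9.21% in all. The median relative log2 ratio of the 10 keratins was 1.10, against 0 for all genes. Of these, KRT4, KRT9 and KRT15 were measurable only through the HA-G9a array, and KRT32 and KRT75 only through the vector array. The count and the median therefore depend in part on the filter. Among genes reaching 84.2 on either array, 2 of 3 keratins (KRT8 and KRT18) were higher, and 0 lower, against 1.6% higher and 0.814% lower of 7743 genes (2.42% in all).

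KRT18 read 2113 against 545 with the vector. Its log2 ratio was 1.96 as deposited, and its relative ratio 2.04. KRT8 read 186 against 67.1. Its log2 ratio was 1.47 as deposited, and its relative ratio 1.55. Both members of the simple epithelial pair were thus higher, by 3.88-fold and 2.77-fold as deposited. Each still read lower than in the CL1-5 control. The probe-set yardstick was an SD of 0.25 for genes of this brightness and of 0.51 for all measurable genes.

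KRT80 read 63.1 against 12.6, a relative log2 ratio of 2.41. KRT15, a type I chain of basal and progenitor cells, read 23.3 against 3.36, just above the floor, with a relative ratio of 2.88. KRT4, a type II chain of wet stratified epithelia, read 22.9 against 3.01, and its ratio of 2.86 is a lower bound because the vector signal was below the floor. Its other probe set read 1.42 against 0.906. With the floor raised to the median of all values, the ratios of KRT15 and KRT4 were 0.98 and 0.95, under 2-fold, so both calls rest on signals under that median. KRT75 read 8.11 against 14.1 and KRT32, a type I hair keratin, 10.8 against 16.5, both short of 2-fold.

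**Figure D3:**
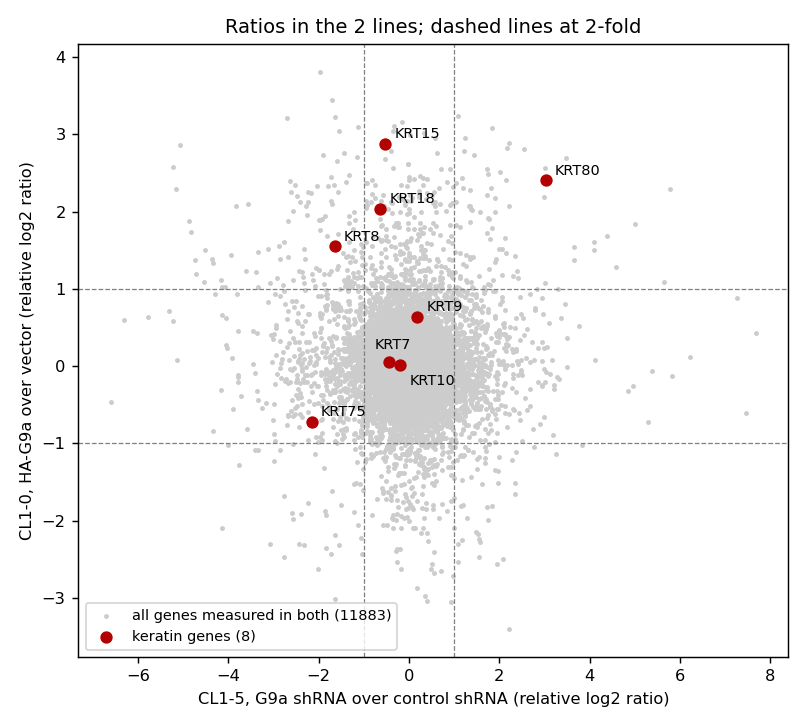
Relative log2 ratio after the G9a knockdown in CL1-5 (x axis) and with HA-G9a in CL1-0 (y axis); grey points are the 11883 genes measurable in both, red points the 8 keratin genes among them, and dashed lines mark 2-fold. KRT8 lies at -1.64 and 1.55, and KRT80 at 3.03 and 2.41.

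Of the 8 keratins measurable in both lines, KRT8 and KRT80 passed 2-fold in both. KRT8 was lower with less G9a and higher with more. KRT80 was higher on both perturbed arrays. Of all 11883 genes measurable in both, 305 passed 2-fold in both, 174 with opposite signs of the ratios and 131 with the same sign. The comparisons share no array.

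KRT7, the usual type II partner of KRT19, gave a different answer by probe set. The probe set with the highest mean read 34.3, 33.6, 32.1 and 31.7 and was level on the 4 arrays. Another probe set read 12.3 in the CL1-5 control, 6.55 with the G9a shRNA, 2.61 with the vector and 41.0 with HA-G9a. By that probe set, HA-G9a over vector had a relative log2 ratio of 3.70, with the vector below the floor. By the probe set with the highest mean, which was the dimmer of these on the HA-G9a array, the ratio was 0.06. The others read 4.35, 5.23, 5.47 and 0.576, and 0.407, 3.93, 0.881 and 0.734. So no single direction can be given for KRT7.

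**Figure D4:**
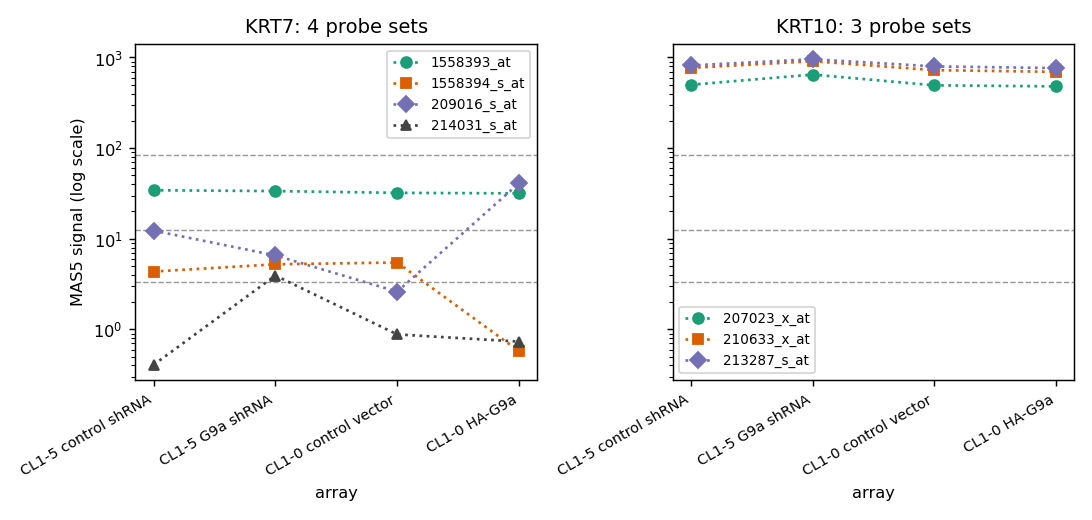
MAS5 signal on a log axis on the 4 arrays for each probe set of KRT7 (left, 4 probe sets) and KRT10 (right, 3 probe sets); dotted lines join points of a probe set only as a guide, and dashed lines mark 3.35, 12.5 and 84.2. The KRT10 probe sets run in parallel, whereas for KRT7 one stays between 31.7 and 34.3 and another runs from 2.61 to 41.0.

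Between the control arrays of the lines, KRT8, KRT15, KRT18 and KRT38 were at least 2-fold higher in CL1-5 and KRT32 lower, of 10 measurable keratins. The vector array is also the reference of the HA-G9a comparison, and the CL1-5 control that of the knockdown. Over all 12925 measurable genes, 12.6% were higher and 13.2% lower, 25.8% in all. KRT9, KRT15 and KRT38 were measurable only through the CL1-5 control, and KRT32 and KRT80 only through the vector array. Of 3 keratins reaching 84.2 on either array, 2 (KRT8 and KRT18) were higher and 0 lower, against 10.3% and 9.48% of 8291 genes (19.7% in all). KRT8 read 757 against 67.1, an 11.3-fold difference as deposited (relative log2 ratio 3.51), and KRT18 2945 against 545, a 5.40-fold one (2.45). KRT15 read 39.9 against 3.36, just above the floor, with a relative ratio of 3.58 and, with the floor at 12.5, of 1.69. KRT38, a type I hair keratin, read 12.6 against 2.62, and KRT32 1.71 against 16.5; both ratios (1.92 and -2.28) are lower bounds on the size, set by the floor, and with the floor at 12.5 they were 0.02 and -0.39. KRT80 hardly differed between the controls, at 11.1 and 12.6, and KRT10 read 817 and 797.

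With both arrays of each line, limma gave a test of CL1-5 against CL1-0. The spread within a line here includes the change of G9a. Of 13 keratins tested, 0 were called at a Benjamini-Hochberg adjusted p under 0.05, and 2 (KRT32 and KRT38) had an unadjusted p under 0.05; over all 13953 genes 2.56% were called (1.05% higher in CL1-5, 1.51% lower) and 23.5% had an unadjusted p under 0.05. For KRT38 the log2 difference was 1.52 (SE 0.29, limma adjusted p = 0.0867), with both CL1-5 arrays, at 12.6 and 12.8, above both CL1-0 arrays, at 2.62 and 4.23; with the floor at 12.5 the sign turned, to -0.17. For KRT8 it was 1.92 (SE 0.81, limma adjusted p = 0.259), again with both CL1-5 arrays above. For KRT18 it was 1.11 (SE 0.77, limma adjusted p = 0.443). KRT15 had a difference of 1.88 (SE 1.03, limma adjusted p = 0.358).

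Of the 13 keratins, 4 had arrays that did not overlap between the lines after centring, against 58.1% of all genes tested. Without centring, 8 did not overlap, against 54.3%; KRT7, KRT10, KRT18 and KRT79 then joined KRT8, KRT15, KRT32 and KRT38. Leaving out the CL1-0 vector array brought the differences down to 0.09 for KRT18, 0.44 for KRT15 and 1.14 for KRT8. Without the HA-G9a array they were 2.13, 3.31 and 2.69. KRT8 also moved with the CL1-5 arrays, to 1.10 without the control and 2.73 without the G9a shRNA. The size of these differences therefore depended on which arrays were used.

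Among the usual pairs whose members were both analysed, which leaves out those with KRT6A, KRT6B, KRT17 or KRT81, only KRT8 and KRT18 were both measurable. They had relative ratios of -1.64 and -0.64 after the knockdown, of 1.55 and 2.04 with HA-G9a, and of 3.51 and 2.45 between the controls. Within each comparison the pair had the same sign and different sizes. The comparison of the controls shares the vector array with the HA-G9a comparison and the CL1-5 control array with the knockdown. These signs are therefore not independent. For KRT4, KRT13, its mucosal partner, stayed at 0.744 to 3.38 on all arrays, so the higher KRT4 signal with HA-G9a had no counterpart there. KRT10 was bright while KRT1, its partner in skin, read 2.60, 1.80, 5.01 and 10.6. KRT5 and KRT14, and KRT3 and KRT12 of cornea, were under 12.5 on all 4 arrays.

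Keratin filaments attach to desmosomes and hemidesmosomes. Of 16 such anchor genes on the array, 12 were measurable in each comparison. The counts below stand against the shares over all measurable genes: 8.13% higher and 7.76% lower after the knockdown, 5.46% and 3.74% with HA-G9a, and 12.6% and 13.2% between the controls. After the knockdown 2 anchor genes were higher (PKP2, a plakophilin, at 133 against 38.1, and PPL, periplakin, at 78.8 against 24.1) and 1 lower (DSC2, a desmocollin, at 11.1 against 35.5), with a median relative ratio of 0.28 against 0 for all genes. With HA-G9a 0 were higher and 1 lower: DSP, desmoplakin, the main keratin linker of desmosomes, read 69.9 against 174, lower where KRT8 and KRT18 read higher, and the list's median was 0.07. Between the controls 6 were higher in CL1-5 and 3 lower, with a median of 0.85; ITGA6 read 1704 against 77.1, DSG2 258 against 38.3, DSP 1089 against 174, and JUP, plakoglobin, 19.4 against 184.

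Of the 15 other intermediate filament genes, VIM, the mesenchymal filament vimentin, was bright and level at 5149, 5219, 4921 and 5060. After the knockdown 3 of 11 measurable ones were higher and 0 lower (median 0.47), against 8.13% and 7.76% of all genes: NEFL, a neurofilament chain, read 1090 against 287, NEFM, another, had a relative ratio of 2.48, a lower bound set by the floor, and BFSP1, a lens filament gene, 43.5 against 12.3. With HA-G9a 1 of 13 was higher (INA, a neuronal filament gene, 337 against 167) and 0 lower, against 5.46% and 3.74%, with a median of -0.08. Between the controls 1 of 13 was higher and 6 lower (median -0.57), against 12.6% and 13.2%. NEFH read 0.755 in CL1-5 against 831, NEFL 287 against 4558, and LMNA, lamin A/C, 1612 against 437.

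Among regulators and binding partners of epithelial keratins, 4 of 16 measurable genes were higher and 4 lower after the knockdown (median -0.05), against 15.9% of all genes in either direction. SNAI2, a repressor of epithelial genes, read 274 against 682 and SNAI1, its relative, 18.3 against 40.1. OVOL2, an epithelial transcription factor, read 14.8 against 1.88, which is below the floor, and SFN, a 14-3-3 protein of epithelia, 309 against 76.9. With HA-G9a 2 of 17 were higher and 3 lower (median 0.59), against 9.21% of all genes in either direction. SNAI2 read 35.7 against 6.93 and KLF4, an epithelial transcription factor, 155 against 47.2, whereas OVOL2 read 3.36 against 12.5 and OVOL1 13.8 against 33.6. The OVOL2 signals lay just above the floor and at the filter threshold, so its calls in both lines rest on dim signals. Between the controls 7 of 17 were higher and 4 lower (median 0.22), against 25.8% in either direction. SNAI2 read 682 against 6.93, KLF4 1111 against 47.2 and TFAP2C, an AP-2 factor, 196 against 20.9, whereas OVOL1 read 7.98 against 33.6. GRHL2, an activator of epithelial genes, was at 4.26 to 6.11 on all arrays.

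Markers of other cell types were read on the same arrays. Of the basal airway list, 4 genes were measured and only KRT15 reached 12.5, on 3 of the 4 arrays. Of 4 leukocyte markers 0 to 2 reached it per array, with PTPRC, which defines the lineage, at 2.59 to 4.17. Of 7 fibroblast markers 0, 2, 3 and 3 reached it, with summed signals of 40.3, 79.0, 451 and 173. Of 6 endothelial markers 4, 1, 1 and 1 did, with summed signals of 483, 103, 44.6 and 32.7. The endothelial sum was highest in the CL1-5 control, as KRT8 and KRT18 were, and the fibroblast sum highest with the CL1-0 vector, where both were lowest. Single genes carried much of these sums: PECAM1 read 318 in the CL1-5 control and COL3A1 330 with the vector. VWF and TEK went the other way, at 1.97 and 1.86 in the CL1-5 control against 10.4 and 6.64 with the vector. Among fibroblast markers, COL1A2, PDGFRB and LUM read lower with the vector (12.1, 1.5 and 1.22) than with HA-G9a (18.0, 11.7 and 11.5). The other fibroblast markers read higher with the vector than with HA-G9a. The endothelial sum was lowest with HA-G9a, where KRT18 read 2113. No other cells were mixed into the cultures by design. The part of other cell types in the KRT8 and KRT18 values was not tested.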

How the data were processed

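The authors deposited 1 linear intensity per probe set and array for 54675 probe sets. The submitters' processing notes name MAS5 and no other tool; how arrays were scaled is not stated in those notes. Probe sets were named through the platform annotation, with symbols updated by Entrez identifier (41043 of 41097 single-gene probe sets matched RefSeq, GRCh38.p14). Of all probe sets, 1801 had several symbols and 11777 were unlisted. These were left out, with 58 probe sets of XIST or of genes placed only on chromosome Y, leaving 19741 genes. A gene's value was its probe set with the highest mean signal.

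Signals below it were set to a floor of 3.35 (25th percentile of all values) and log2-transformed. A gene was measurable where the brighter array reached 12.5 (median); 84.2 (75th percentile) was stricter. Calls within or between single arrays used 2-fold, with no test. The lines were compared with limma 3.58.1 (R 4.3.3), lmFit and eBayes over 13953 genes, arrays median-centred, 2 residual degrees of freedom, tested on simulated data. Other steps used Python 3.11.15, pandas 2.3.3 and NumPy 2.4.6. With 4 arrays in all, their number sets the limit on precision. The 2 arrays of a line are not replicates of a condition. Members, lists and rules were chosen with earlier results of these data known. Every member could be named: with values on each array where it reached 84.2 or passed 2-fold, otherwise by range or class; up to 4 list members past 2-fold were named per comparison. KRT7, KRT19 and other members under those limits were given values after these had been seen. Alternatives covered scaling, floor, filter, probe set choice, left-out arrays and G9a level as a term.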

Additional observations from a re-analysis of the deposited data

Results flagged for a closer look

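KRT80 was flagged because more G9a went with opposite differences in the lines. Set as the array with more G9a over the array with less, its relative log2 ratio was -3.03 in CL1-5 (control shRNA over G9a shRNA) and 2.41 in CL1-0 (HA-G9a over vector). Each line had 1 array per arm, so the difference was not tested. The pattern was not particular to KRT80. Of 305 genes past 2-fold in both comparisons, 131 were both higher or both lower after the knockdown and with HA-G9a. KRT80 was measured by 1 probe set.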

How the results depend on the processing

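The number of keratins past 2-fold after the knockdown, 4, was 2 with the 75th percentile filter and 10 with no filter. With HA-G9a, 5 became 3 with the floor at the median, 2 with the 75th percentile filter and 8 with no filter, and between the control arrays 5 became 3, 2 and 9 under the same settings. The stricter filter tests fewer genes and no filter tests all 44. Under the other settings tried these counts stayed within 1.5 times. KRT8 kept its direction and stayed past 2-fold in all 3 comparisons of single arrays under each alternative that gave a value, with ranges of -1.64 to -1.22, 1.40 to 1.56 and 3.41 to 3.55; KRT80 did so after the knockdown (2.90 to 3.45) and with HA-G9a (2.25 to 2.41). Between the lines limma called 0 keratins under each of 13 alternatives, but the calls among all genes ran from 0 to 729. They were 0 without the CL1-0 vector array, without the HA-G9a array and with line and G9a level as terms, and 63 without the CL1-5 control, so those settings say little about the keratins. In this comparison the sign of the KRT10 difference turned to 0.18 as deposited, 0.07 with arrays scaled to one median and 0.02 with no filter, and with the floor at the median that of KRT38 turned to -0.17 and that of KRT78 to 0.20; the cause was not tested. Leaving out 1 array at a time, differences ran from 1.10 to 2.73 for KRT8, -0.15 to 0.04 for KRT10, -0.88 to 1.28 for KRT75, -0.31 to 0.70 for KRT78 and -1.38 to 1.66 for KRT80. The fit with line and G9a level as terms, the array with more and the array with less G9a in each line, gave KRT8 1.92 (limma adjusted p = 0.0987). The count of keratins whose arrays did not overlap between the lines was 4 after centring and 8 without it, a setting chosen after seeing the data. The number of arrays, and signals near the floor, limit every value of the dim members.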

Other observations

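Some transcripts related to keratins fell outside the family rule. KRT10-AS1, an antisense RNA gene beside KRT10, had signals of 211 in the CL1-5 control, 292 with the G9a shRNA, 265 with the CL1-0 vector and 233 with HA-G9a. KRT8P12, a KRT8 pseudogene, read 29.9, 48.0, 20.7 and 28.1 on its brighter probe set and 2.52, 16.3, 6.67 and 15.1 on the other. After the knockdown both KRT8P12 probe sets read higher as deposited, whereas KRT8 read lower. The G9a shRNA array was brighter in general, with a log2 ratio of 0.42 for the median gene. The dimmer probe set's control signal, 2.52, lay under the floor. KRT17P5, a pseudogene, read 6.34, 7.52, 18.6 and 22.4 on a probe set marked _x_at, with both CL1-0 arrays above both CL1-5 arrays. Without centring, 54.3% of all genes tested had arrays that did not overlap between the lines, in either direction.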
